A study of Mus musculus with 8 samples.

Results

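A pair of splice forms of the RNA-binding protein Rbfox1, a cytoplasmic and a nuclear isoform, were compared directly in cultured mouse hippocampal neurons in which endogenous Rbfox1 and Rbfox3 had been knocked down. The comparison covers 4 of the 8 samples of the study, 2 libraries for each isoform. Its genes are those listed in both rescue expression tables with an FPKM (sequenced fragments scaled to transcript length and to library size) of at least 1 with either isoform, 12406 of 15794 genes in any table. Its exons are the 45 cassette exons, of 551 in any splicing table, that both rescue tables list with identical coordinates of the cassette and of both neighbouring exons. Each splicing table holds exons that the authors selected as changed against the knockdown, so the 45 are exons listed for both isoforms, and an exon listed for 1 isoform only is not among them. Neither the genes nor the exons were chosen for a difference between the isoforms.

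All neurons were 14 days in vitro (DIV) at collection. At 9 DIV they had received adeno-associated virus of serotype 2/9 with a synapsin I promoter, which is active in neurons, and from 10 DIV siRNA for 4 days. Both rescue groups carried siRNA against Rbfox1 and Rbfox3 and a virus with Flag-tagged Rbfox1, the C (cytoplasmic) or the N (nuclear) form, each marked siMt, read here as altered at the siRNA sites. The knockdown group carried the same siRNA with EGFP, and the control group non-targeting siRNA with EGFP. The labels do not say whether the 2 libraries of a group came from separate cultures. The tables give 1 value per group, so the values below are the authors' group values with no spread between libraries.

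Rbfox proteins bind the RNA sequence UGCAUG. In the nucleus they regulate alternative splicing: sites in the intron downstream of a cassette exon generally promote its inclusion, and sites upstream or within it generally promote skipping. Alternative splicing of Rbfox1 itself removes or retains an exon that decides whether the protein carries its nuclear localisation signal. The cytoplasmic form binds 3′ untranslated regions (3′ UTRs) of messenger RNAs and is known to affect their stability and translation. In neurons both forms have been tied to synaptic and calcium signalling genes.

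The level of Rbfox1 RNA was not the same in the rescues. Rbfox1 stood at 25.7 FPKM in control, 1.94 in the knockdown, 16.1 with the cytoplasmic isoform and 38.2 with the nuclear isoform. It was thus 2.38-fold higher with the nuclear isoform, with a log2 difference of fold changes of -1.25 and an error of 0.235. A difference is said to pass where a z test of it, adjusted over all genes by the Benjamini-Hochberg method, fell below 0.05, and Rbfox1 passed. The test is a normal approximation built on the authors' errors from 2 libraries a group, so its p-values are not printed and each difference is given with its error. Rbfox1 lies at chr16:5884886-7412573 (mm9). These values add vector and endogenous RNA, and in every comparison below the kind of isoform and the amount of Rbfox1 RNA cannot be told apart. Rbfox3, the second siRNA target, a neuronal family member, stood at 12.4 FPKM in control, 1.59 in the knockdown and 1.59 and 1.53 with the cytoplasmic and nuclear isoform, alike low in the 3 groups that received the siRNA.

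Rbfox2, the family member that was not targeted, had its lowest value with the nuclear isoform. It stood at 35.4 FPKM in control, 42.1 in the knockdown, 33.2 with the cytoplasmic isoform and 17.7 with the nuclear one. The nuclear value lay below the other 3 groups and at 49.9% of control. The level was 1.88-fold higher with the cytoplasmic isoform, with a log2 difference of 0.91 and an error of 0.247, and did not pass. The knockdown group enters both rescue tables, so adding their errors counts its share again. With 50% of each variance removed for that share the error was 0.175, and Rbfox2 passed.

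The cultures held neurons and glia. With the cytoplasmic and nuclear isoform, the 15 pan-neuronal markers summed to 2797 and 2854 FPKM and the 15 astrocyte markers to 4180 and 4290. The 7 of 14 microglia markers at 1 FPKM or above with either isoform summed to 28.7 and 24.8 FPKM. The defining microglia genes Cx3cr1, P2ry12, Tmem119, Aif1 and Csf1r lay below 1. The 13 oligodendrocyte lineage markers summed to 289 and 317 FPKM. In such bulk samples fewer cells of a type and less RNA per cell cannot be told apart.

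Over all genes the isoforms gave closely similar levels. The median log2 ratio of cytoplasmic over nuclear FPKM, with 1 added to each value, was -0.04, the scaled median absolute deviation was 0.10, and 34.3% of genes lay above 0. Of 12375 genes tested 4 passed an adjusted p of 0.05, a share of 0.0323%, with 114 genes at an unadjusted p below 0.05. Ptgs2 was higher with the cytoplasmic isoform, and Rbfox1, Gm20594 and Iyd with the nuclear isoform. With 50% of each variance removed 28 genes passed, a share of 0.226%, of which 21 were higher with the cytoplasmic isoform and 7 with the nuclear one. The ratios of difference to error had a scaled spread of 0.477 over genes with both errors added, below the spread of 1 that the test assumes. Ptgs2 lies at chr1:151947254-151955142, Gm20594 at chr6:79768025-79768358 and Iyd at chr10:6791664-6806262 (mm9).

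**Figure D1:**
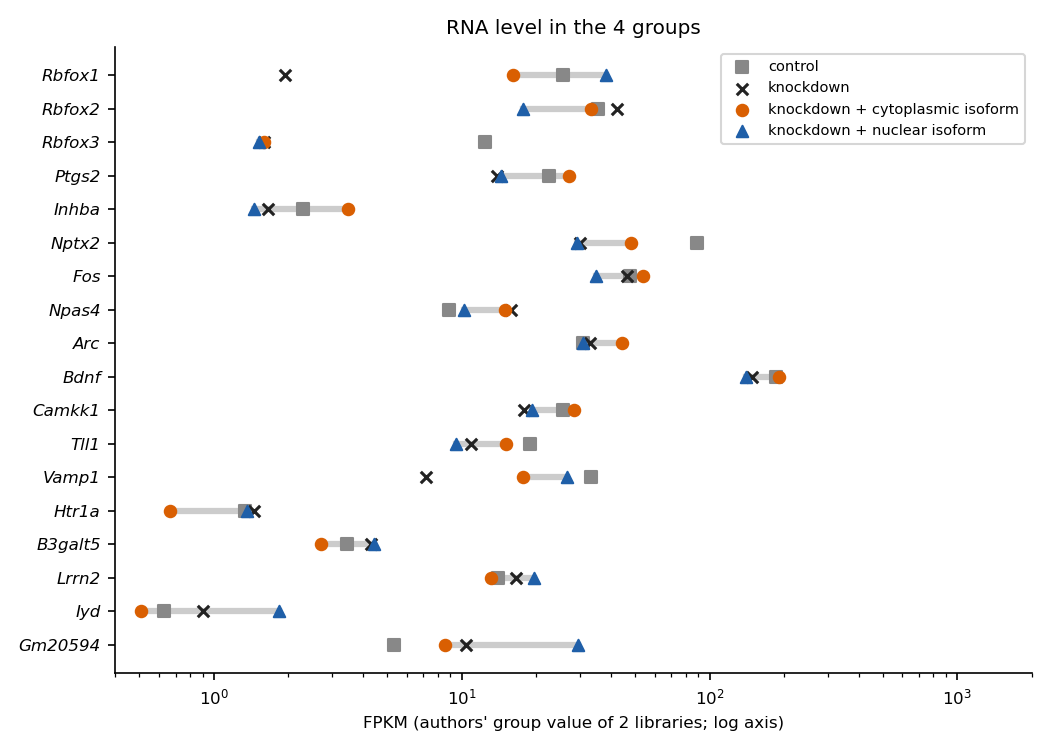
RNA level of 18 genes in the 4 groups, on a log axis of FPKM, with a grey bar between the 2 isoforms. Each symbol is 1 authors' group value of 2 libraries. The control square for Rbfox1 lies between the isoforms at 25.7 FPKM, and Ptgs2 with the nuclear isoform (14.4) lies beside the knockdown (13.8).

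Of the 21 genes that passed as higher with the cytoplasmic isoform with 50% of each variance removed, 5 are on the activity lists. These lists hold genes that neurons induce when they are active, and the 5 are Ptgs2, Inhba, Nptx2, Fos and Npas4. Ptgs2, the inducible cyclooxygenase that makes prostaglandins, stood at 22.6 FPKM in control, 13.8 in the knockdown, 27.1 with the cytoplasmic isoform and 14.4 with the nuclear one. The cytoplasmic value lay above control and the nuclear value stayed next to the knockdown, a 1.88-fold difference that passed (log2 difference 0.91, error 0.205). Inhba, which encodes a subunit of activin, also stood highest with the cytoplasmic isoform, with 2.28 FPKM in control, 1.66 in the knockdown, 3.48 with the cytoplasmic isoform and 1.45 with the nuclear one. The ratio of the rescues was 2.39 (log2 difference 1.26, error 0.317), which passed only with 50% of each variance removed.

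Nptx2, a secreted pentraxin that gathers AMPA receptors at synapses, stood between knockdown and control with the cytoplasmic isoform and next to the knockdown with the nuclear isoform. It stood at 88.8 FPKM in control, 30.1 in the knockdown, 48.2 with the cytoplasmic isoform and 29.1 with the nuclear one, a 1.66-fold difference that also passed only in that way (log2 difference 0.73, error 0.212). Neither isoform brought it to the control level. Its relative Nptx1 stood at 87.5, 47.4, 61.4 and 47.4 FPKM in the same order of groups, which did not pass (log2 difference 0.37, error 0.263). Bdnf, a growth factor of activity-dependent plasticity, stood at 186, 148, 190 and 141 FPKM, again with the nuclear value beside the knockdown, and did not pass (log2 difference 0.43, error 0.408).

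Among late activity-induced genes, 20 of 21 measured lay above 0, with a median log2 ratio of 0.29 against -0.04 for all genes. The range went from -0.05 (Nrn1) to 0.87 (Ptgs2). Ptgs2 passed the test, and Ptgs2, Inhba and Nptx2 passed with 50% of each variance removed. Nrn1 was the 1 member below 0. With Ptgs2, Inhba and Nptx2 left out, a choice made after their values were seen, the median was 0.21.

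Immediate early genes, which respond to activity first, had a median log2 ratio of 0.23, with 16 of 21 above 0. With both errors added 0 of the 21 passed the z test, and with 50% of each variance removed Fos and Npas4 did. Fos, a transcription factor subunit, stood at 47.7 FPKM in control, 46.3 in the knockdown, 54.1 with the cytoplasmic isoform and 34.7 with the nuclear one. Here the nuclear value was the one apart, below the other 3 groups. Npas4, an activity-dependent transcription factor of neurons, stood at 8.88 FPKM in control, 15.8 in the knockdown, 14.9 with the cytoplasmic isoform and 10.2 with the nuclear one, so that the nuclear value was the nearer to control. Arc, a postsynaptic regulator of AMPA receptor trafficking, stood at 30.7, 33.1, 44.1 and 30.9 FPKM in the same order of groups, and the cytoplasmic value was the one apart (log2 difference 0.51, error 0.212) but did not pass. Jun, at 15.2 against 19.1 FPKM with the cytoplasmic and nuclear isoform, lay farthest on the other side (log2 ratio -0.32). Of the 21 immediate early genes 6 had an unadjusted p below 0.05 and of the late genes 4, all higher with the cytoplasmic isoform, beside 0.921% of all genes tested.

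The order of the 4 groups was therefore not shared by these genes. Ptgs2, Inhba, Nptx2 and Bdnf had a nuclear value next to the knockdown and a higher cytoplasmic value. Fos lay below control, knockdown and cytoplasmic rescue with the nuclear isoform. Microglia markers also lay higher with the cytoplasmic isoform, 7 of 7 measured above 0 with a median log2 ratio of 0.19. Of these C1qb reached 1 FPKM with the cytoplasmic isoform only (1.34 against 0.921 FPKM), so its side of 0 followed from the minimum. Oligodendrocyte lineage markers lay lower, 0 of 13 above 0 with a median of -0.15, and 1 above the all-gene median. No marker of either list passed with both errors added, and their part in the activity genes was not tested.

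**Figure D2:**
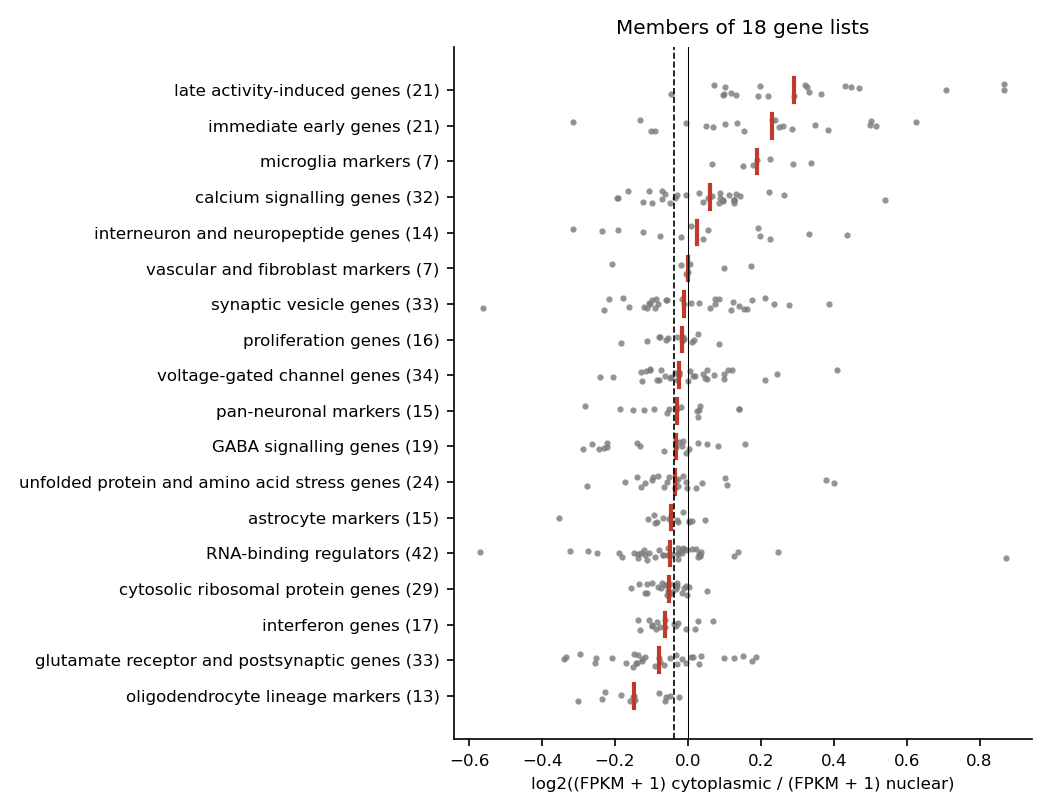
Log2 ratio of cytoplasmic over nuclear FPKM (1 added to each) for the measured members of 18 gene lists, the number measured in parentheses. Points are genes, red bars list medians, the dashed line the median of all genes (-0.04). The medians of the 2 activity lists are 0.29 and 0.23.

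Most other lists stayed near the median of all genes, -0.04. Calcium signalling genes lay above it, with a median of 0.06, 19 of 32 above 0 and 22 above the all-gene median. The glutamate receptor and postsynaptic genes had a median of -0.08, with 9 of 33 above 0 and 13 above the all-gene median. Synaptic vesicle genes (-0.01), voltage-gated channel genes (-0.02), GABA signalling genes (-0.03), proliferation genes (-0.02), pan-neuronal markers (-0.03) and stress genes (-0.03) lay between that median and 0, so their sign turns when the all-gene median is set to 0. The 29 listed cytosolic ribosomal protein genes ranged from -0.16 to 0.05, with 2 above 0 and a median of -0.05. The list does not hold Rps16, whose log2 ratio was -0.58. The listed RNA-binding regulators, without Rbfox1 (-1.20), had the same median, -0.05, with Rbfox2 highest at 0.87 and Hnrnpa1, a splicing repressor, lowest at -0.57 (58.4 against 87.2 FPKM, not passing). Interferon genes (-0.06), astrocyte markers (-0.05), vascular and fibroblast markers (0.00) and the interneuron and neuropeptide genes (0.03) held no gene that passed.

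Camkk1, a kinase that activates calcium/calmodulin-dependent kinases, was the calcium signalling gene farthest from 0. It stood at 25.6 FPKM in control, 17.9 in the knockdown, 28.4 with the cytoplasmic isoform and 19.2 with the nuclear one. The cytoplasmic value was slightly above control and the nuclear value near the knockdown, a 1.48-fold difference (log2 difference 0.56, error 0.202) that passed only with 50% of each variance removed. The related Camkk2 stood at 15.5, 20.6, 26.5 and 21.9 FPKM and did not pass (log2 difference 0.27, error 0.223). Tll1, a metalloprotease of the tolloid family, stood at 18.9, 10.9, 15.2 and 9.49 FPKM in the same order, with the nuclear value below the knockdown and a log2 difference of 0.67 with an error of 0.204. Ttr, a thyroid hormone carrier made in the choroid plexus, stood at 69.8, 90.4, 106 and 63.6 FPKM. Its cytoplasmic value was the highest of the 4 groups and its nuclear value the lowest. Tll1 and Ttr, too, passed only with 50% of each variance removed. So did Serpinb2, which is on neither activity list, at 3.55, 4.73, 8.71 and 4.92 FPKM in the same order.

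A further 11 of these 21 genes higher with the cytoplasmic isoform had levels near control in both the knockdown and the nuclear rescue. This set was picked after the values were seen, as genes within 15% of control in both. With the cytoplasmic isoform they stood at 148% to 173% of control, a ratio to the nuclear rescue of 1.56 to 1.80, and in the knockdown at 86.8% to 109% of control. They include the long non-coding RNA Kcnq1ot1 (1.23, 1.17, 1.91 and 1.22 FPKM in control, knockdown, cytoplasmic and nuclear rescue), the unnamed transcripts A130077B15Rik (33.6, 31.0, 52.3 and 32.2) and 4932411L15 (5.81, 5.20, 10.1 and 5.79), and the kinase genes Pim1 (1.56, 1.69, 2.56 and 1.42) and Grk4 (7.17, 6.58, 10.9 and 6.78). That the cytoplasmic rescue was the 1 group apart in each of them follows from this choice. The others are Olfr613, Olfr856-ps1, Gm17821, Gm6300, Zfp488 and 4930470H14Rik.

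Of the 7 genes that passed as higher with the nuclear isoform with 50% of each variance removed, Rbfox1 is given above. Iyd, an iodotyrosine deiodinase, stood at 0.632 FPKM in control, 0.906 in the knockdown, 0.510 with the cytoplasmic isoform and 1.83 with the nuclear one, a 3.59-fold difference at low levels that passed (log2 difference -1.84, error 0.383). Iyd reached the minimum of 1 FPKM with the nuclear isoform only, so it was tested because it was high there. Gm20594, a predicted gene, stood at 5.32, 10.4, 8.57 and 29.5 FPKM in the same order, a 3.45-fold difference that passed (log2 difference -1.78, error 0.337). In both, the nuclear rescue was the 1 group apart and lay above control. Htr1a, the serotonin 1A receptor gene, was instead low with the cytoplasmic isoform, at 1.34, 1.45, 0.665 and 1.35 FPKM (log2 difference -1.03, error 0.267), and it too entered through the nuclear value alone. B3galt5, a galactosyltransferase gene, stood at 3.46, 4.32, 2.69 and 4.43 FPKM, with control between the rescues. Lrrn2, a leucine-rich repeat protein gene of neurons, stood at 14.0, 16.6, 13.1 and 19.5 FPKM, and Rps16, a ribosomal protein gene, at 115, 144, 136 and 204. These 4 passed only with 50% of each variance removed. LOC100302567, listed at the same span as Rps16 (chr7:29135708-29137717, mm9), went the other way, at 0, 41.5, 46.9 and 0 FPKM. How reads were divided between both entries was not tested.

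Vamp1, a synaptic vesicle fusion protein, stood above the knockdown with both isoforms, with the higher value for the nuclear one. It stood at 33.3 FPKM in control, 7.18 in the knockdown, 17.6 with the cytoplasmic isoform and 26.5 with the nuclear one, 52.9% and 79.6% of control. The difference between the isoforms (log2 difference -0.59, error 0.221) did not pass, with 50% of each variance removed either. At least 1.5-fold apart were 58 genes higher with the cytoplasmic isoform (0.468%) and 33 higher with the nuclear isoform (0.266%), of which 36 and 26 carry names of small RNAs such as Snord and Mir. For genes with an implied error under 1 in both tables these counts were 20 and 3, a limit added after the values were seen. Of the 12 largest ratios in each direction most were of such small RNA genes, many listed at 0 with 1 isoform, for example Snord69 at 984 against 0 FPKM and Snord49a at 0 against 2239 FPKM. No error could be given for those listed at 0. The exceptions by name were Lars2 (164 against 1347 FPKM, error 3.06), Rabggtb (999 against 46.5, error 33.9), Ercc2 (156 against 5.97, error 12.0) and LOC100302567 (46.9 against 0), and the 3 with an error did not pass.

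Copies of the Rbfox hexamer in 3′ UTRs went with a higher level under the cytoplasmic isoform, by a small amount. The hexamer, TGCATG in DNA letters, was counted on the transcript strand, overlapping copies included, in the longest annotated 3′ UTR of 10599 genes with an implied error under 1 (GENCODE M21, GRCm38), of which 38.5% held it. The median log2 ratio was -0.05 in 6520 genes with 0 copies, -0.04 in 2449 with 1, -0.03 in 961 with 2 and -0.02 in 669 with 3 or more. The share of genes above 0 went from 30.6% to 35.2%, 38.9% and 43.6%. Each step is smaller than the spread over genes, whose scaled median absolute deviation was 0.10, and smaller than the median error of a single gene (0.222).

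Genes with more copies have longer 3′ UTRs, with a median of 816 nt at 0 copies and 4055 nt at 3 or more, so the counts were also taken within 4 classes of 3′ UTR length with about equal numbers of genes. From 0 to 1 copy the median log2 ratio went from -0.035 to -0.0081 in the shortest class (50 to 560 nt). From 0 to 3 or more copies it went from -0.047 to 0.041 in the second (560 to 1279 nt), from -0.057 to -0.00017 in the third (1279 to 2434 nt), and from -0.066 to -0.021 in the longest. In each class every added copy gave a higher median. The reverse complement CATGCA, which 34.2% of these 3′ UTRs hold, had medians of -0.042, -0.039, -0.043 and -0.039 from 0 to 3 or more copies over all lengths, with no such order. Within the classes its medians went from -0.063 to -0.043 in the longest and from -0.051 to -0.032 in the third. This count, its bins and its limits were chosen after the data had been seen, among 9 motifs counted, and no test was made. From 0 to 3 or more copies over all lengths, medians also rose at each step for GCATG, which lies within the hexamer, from -0.048 to -0.032. They rose at each step as well for GTGCAT, which overlaps the hexamer by 5 nt, from -0.042 to -0.030. The others had no such order over all lengths. Those for CATGC, the reverse complement of GCATG, went from -0.040 to -0.044 and those for TGTANATA from -0.041 to -0.046. The medians for TATTTAT went from -0.042 to -0.040, those for TGACTG from -0.036 to -0.042, and those for ACTGTG from -0.039 to -0.048. Within length classes other motifs rose too. CATGC rose at each step in the 3 shorter classes, in the third from -0.051 to -0.036, where GCATG went from -0.072 to -0.024. In the longest class CATGC went from -0.072 to -0.0474, falling only at its last step, from -0.0466. From 0 to 1 copy CATGCA went from -0.033 to -0.022 in the shortest class. In the longest it went from -0.063 to -0.046 at that step, where TGCATG went from -0.066 to -0.059. TATTTAT rose at each step in the second class, from -0.044 to -0.018. TGCATG and GCATG were the motifs that rose at each step in all 4 classes, and whether they differ from the others was not tested.

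**Figure D3:**
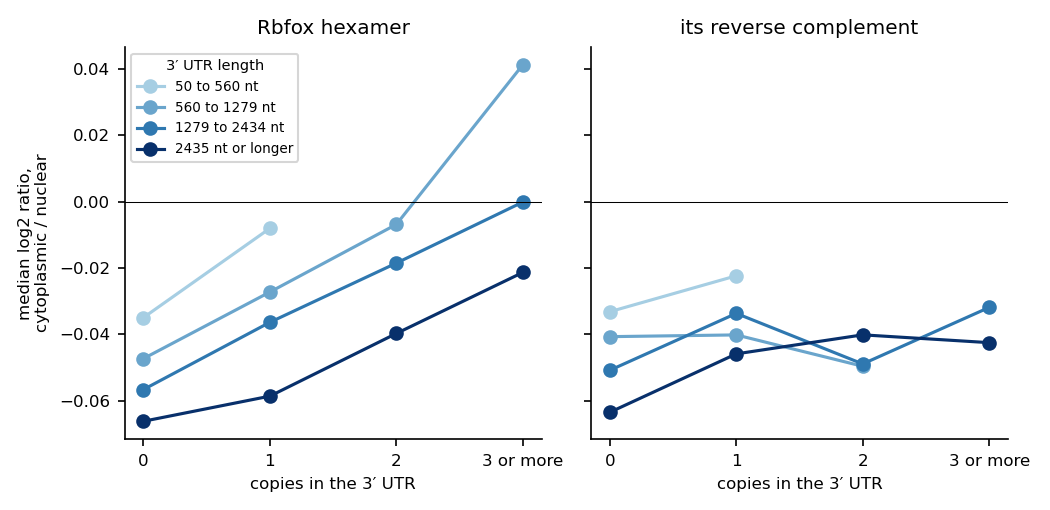
Median log2 ratio of cytoplasmic over nuclear FPKM by copies of the Rbfox hexamer (left) or of its reverse complement (right) in the longest 3′ UTR, 1 line for each of 4 classes of 3′ UTR length. Bins of under 20 genes are left out. On the left each line rises, in the longest class from -0.066 to -0.021, and on the right the lines cross.

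Among genes at least 1.25-fold higher with the cytoplasmic isoform, 50 of 87 (57.5%) held the hexamer, at 0.577 copies per kb. Among those at least 1.25-fold higher with the nuclear isoform it was 34 of 94 (36.2%), at 0.306 copies per kb. Over all genes it was 38.5%, at 0.367 copies per kb, so the nuclear set lay near the share of all genes. The reverse complement was held by 36.8% and 36.2% of the same sets and by 34.2% of all genes. The 3′ UTRs of both sets were of like length, with medians of 1216 and 1187 nt. The 1.25-fold limit was not planned, and no test was made. Camkk1 with 3 copies, Bdnf with 3 and Inhba and Arc with 1 each had higher values with the cytoplasmic isoform, and Vamp1 with 4 copies with the nuclear isoform. Jun with 2 copies and Nr4a2 with 1, both immediate early genes, also lay higher with the nuclear isoform. So did Homer2 with 5 copies and Shank3 with 3. Of these Camkk1 and Inhba passed, and only with 50% of each variance removed. Ptgs2, Nptx2, Fos, Npas4 and Rbfox2, which in that setting also passed as higher with the cytoplasmic isoform, held 0 copies. The sites of Camkk1 and Vamp1 are shown because these genes lie at opposite ends among genes with 3 or more copies. The first sites of Bdnf, Inhba and Arc are shown as sites of activity genes that lay higher with the cytoplasmic isoform. They are written 5′ to 3′ on the transcript strand with the hexamer in capitals, from GENCODE M21 on GRCm38.
Camkk1 site 1, chr11:73040299-73040304, plus strand: gtcccTGCATGtgcccagggccg
Camkk1 site 2, chr11:73040434-73040439, plus strand: cacccattgtgcTGCATGacctgcgcacag
Camkk1 site 3, chr11:73041602-73041607, plus strand: atacagcacactTGCATGtctcatactggc
Vamp1 site 1, chr6:125220501-125220506, plus strand: gcttgctgccagTGCATGtgtatatgcaca
Vamp1 site 2, chr6:125220997-125221002, plus strand: agaaatgagagcTGCATGgcaagactccca
Vamp1 site 3, chr6:125221272-125221277, plus strand: tttcactcccttTGCATGctgtgtttgttg
Vamp1 site 4, chr6:125221916-125221921, plus strand: ccaccacccatgTGCATGagcaaatatgca
Bdnf site 1, chr2:109724253-109724258, plus strand: aattttatgaacTGCATGtataaatgaagt
Inhba site 1, chr13:16029757-16029762, plus strand: ttatgcaggaaaTGCATGtactgcataaga
Arc site 1, chr15:74669655-74669660, minus strand: agcccagctcgcTGCATGgcctttggctcc
The first Camkk1 site begins 6 nt after the stop codon and the first Vamp1 site 850 nt after it.

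The exon comparison starts from exons already listed as changed against the knockdown, so its shares cannot be set against those of the genes. Of the 45 cassette exons 14 differed in junction reads between the isoforms by Fisher's exact test with Benjamini-Hochberg adjustment over the 45, a share of 31.1%. More included with the nuclear isoform were 10 (22.2%), and with the cytoplasmic isoform 4 (8.89%). Joined on the cassette exon alone, 18 of 49 joined pairs differed, 10 and 8 in these directions. In that join the neighbouring exons need not be the same in both rescues, so the junction reads may come from different events. The test sets reads that join the cassette to a neighbour against reads that skip it, and compares pooled libraries, not conditions. Reads of both junctions of the cassette are summed, so a share of junction reads tends to lie above the fraction of transcripts with the exon. Junction reads per exon and rescue went from 55 to 13129, with medians of 212 for the cytoplasmic and 213 for the nuclear isoform, and the 95% Wilson intervals below cover counting error only.

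The 11 exons that differed and had a coding match are shown first, because the results below turn on them. Each was matched to GENCODE M21 on GRCm38 by chromosome, strand, exon size and both intron lengths, which gave 1 exon for 42 of the 45, 31 of them coding. The cassette exon is in capitals, with up to 15 nt of each neighbouring exon in lower case, 5′ to 3′ on the transcript strand. The first 8 were more included with the nuclear isoform, the next 3 with the cytoplasmic isoform, and the last is an exon with no detected difference.
Tanc2, chr11:105914041-105914070, plus strand: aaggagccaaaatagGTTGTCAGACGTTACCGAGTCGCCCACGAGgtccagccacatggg
Camta1, chr4:151071426-151071456, minus strand: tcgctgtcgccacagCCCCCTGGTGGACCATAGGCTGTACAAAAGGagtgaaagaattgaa
Eml1, chr12:108503183-108503233, plus strand: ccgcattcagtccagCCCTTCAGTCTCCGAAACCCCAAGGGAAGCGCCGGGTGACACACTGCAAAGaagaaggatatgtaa
Camk2g, chr14:20757666-20757728, minus strand: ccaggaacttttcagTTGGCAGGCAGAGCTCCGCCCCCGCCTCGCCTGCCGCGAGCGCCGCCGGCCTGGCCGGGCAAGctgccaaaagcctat
mKIAA0787, chr5:122736988-122737030, minus strand: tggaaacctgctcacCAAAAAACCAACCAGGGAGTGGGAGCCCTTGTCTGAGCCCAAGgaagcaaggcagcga
Cacna1a, chr8:84635549-84635584, plus strand: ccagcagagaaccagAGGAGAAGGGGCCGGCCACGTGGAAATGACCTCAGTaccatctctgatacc
Eif4g3, chr4:138095909-138095929, plus strand: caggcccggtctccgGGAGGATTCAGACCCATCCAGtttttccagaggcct
Ndrg4, chr8:95712325-95712363, plus strand: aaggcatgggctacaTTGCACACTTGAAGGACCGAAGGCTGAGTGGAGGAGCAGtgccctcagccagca
Kcnd3, chr3:105666962-105667018, plus strand: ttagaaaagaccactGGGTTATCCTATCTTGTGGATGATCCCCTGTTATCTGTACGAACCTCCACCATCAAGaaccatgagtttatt
Stxbp5l, chr16:37186651-37186722, minus strand: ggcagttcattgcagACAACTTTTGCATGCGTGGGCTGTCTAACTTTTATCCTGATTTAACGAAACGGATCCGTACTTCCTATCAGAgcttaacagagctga
Dclk1, chr3:55521850-55521923, plus strand: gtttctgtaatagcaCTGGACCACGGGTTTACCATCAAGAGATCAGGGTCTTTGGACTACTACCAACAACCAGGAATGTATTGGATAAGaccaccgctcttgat
Oscp1, chr4:126064950-126064979, plus strand: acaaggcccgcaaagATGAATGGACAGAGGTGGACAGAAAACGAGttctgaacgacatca
The letters GCATG were found inside 2 of the 31 coding exons on the transcript strand, that of Stxbp5l and a long exon of Mki67. Introns were not searched.

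The exons more included with the nuclear isoform had ratio differences of up to 0.265, in Tanc2. The exon of Tanc2, a postsynaptic scaffold gene, had an inclusion ratio (the authors' fraction of transcripts that hold the exon) of 0.203 in the knockdown, 0.304 with the cytoplasmic isoform and 0.569 with the nuclear one. Its junction reads included the exon in 40.4% (Wilson interval 31.1% to 50.5%) and 68.9% (58.7% to 77.5%), a difference of -28.5 points (-41.2 to -14.1, Fisher's exact adjusted p = 6.00e-04). Measured from the knockdown, the ratio was higher by 0.101 with the cytoplasmic isoform and by 0.366 with the nuclear one. The 31 nt exon of Camta1, a calmodulin-binding transcription activator, was at 0.047 in the knockdown, 0.203 with the cytoplasmic isoform and 0.453 with the nuclear one, with 24.9% and 52.4% of junction reads (exact adjusted p = 1.92e-09). The 63 nt exon of Camk2g, the gamma chain of calcium/calmodulin-dependent kinase II, was at 0.352 in control, 0.137 in the knockdown, 0.410 and 0.599, with 52.9% and 69.7% of junction reads (exact adjusted p = 1.77e-07). Both isoforms took the Camk2g exon past control, the nuclear one farther.

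The exon of mKIAA0787, matched to Camkk2, another kinase of this cascade, was at 0.686 in control, 0.326 in the knockdown, 0.657 with the cytoplasmic isoform and 0.813 with the nuclear one, with 77.5% and 85.6% of junction reads (exact adjusted p = 1.05e-04). Here the cytoplasmic isoform came close to control and the nuclear isoform passed it. The 36 nt exon of Cacna1a, the pore subunit of P/Q-type calcium channels, was at 0.808, 0.483, 0.623 and 0.765 in the same order, with 72.6% (65.5% to 78.6%) and 85.5% (77.7% to 90.8%) of junction reads, intervals that overlap narrowly (exact adjusted p = 0.0417). Neither isoform took it to the control ratio. The exon of Stx3, a syntaxin of membrane fusion (mm9 chr19:11864538-11864583), was at 0.563, 0.102, 0.302 and 0.478, with 43.1% and 61.0% of junction reads (exact adjusted p = 3.18e-04).

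The remaining 4 of this direction lay in Eml1, Eif4g3, Prpf18 and Ndrg4. Eml1, a microtubule-associated protein gene, was at 0.307 in control, 0.125 in the knockdown, 0.270 with the cytoplasmic isoform and 0.470 with the nuclear one (Fisher's exact adjusted p = 0.00113). Eif4g3, a translation initiation factor gene, was at 0.585, 0.394, 0.527 and 0.675 for its 21 nt exon (exact adjusted p = 0.0394), and Prpf18, a splicing factor gene, at 0.366, 0.183, 0.408 and 0.501 (exact adjusted p = 0.0186). The nuclear isoform took all 3 past control, and the cytoplasmic isoform took Prpf18 past it too. Ndrg4, a gene of the N-myc downstream regulated family, was at 0.848, 0.630, 0.761 and 0.829 and had the most reads, 11901 and 13129. Its 80.5% and 86.4% of junction reads differed by -5.84 points (-6.76 to -4.91, exact adjusted p = 7.79e-34), a small and closely bounded difference.

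**Figure D4:**
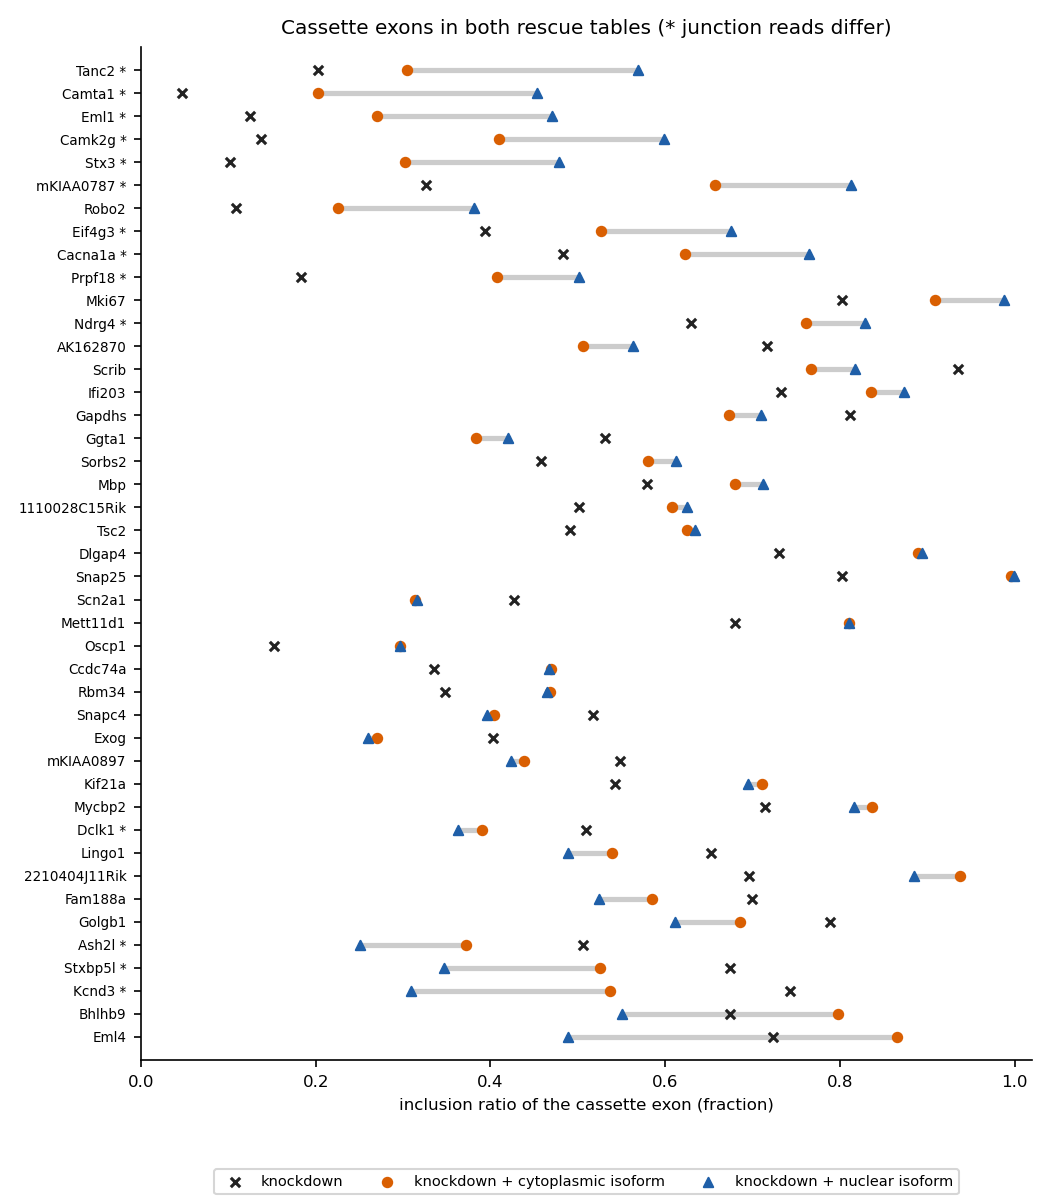
Inclusion ratio of 43 of the 45 cassette exons in the knockdown and with each isoform, ordered by the difference between the isoforms, with a grey bar between them. Asterisks mark the 14 exons whose junction reads differed. For Tanc2 the bar runs from 0.304 to 0.569 and for Kcnd3 from 0.537 to 0.309.

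The 4 exons more included with the cytoplasmic isoform were all less included with either isoform than in the knockdown. The exon of Kcnd3, an A-type potassium channel of neurons, was at 0.466 in control, 0.743 in the knockdown, 0.537 with the cytoplasmic isoform and 0.309 with the nuclear one, with 77.4% (72.8% to 81.4%) and 56.8% (51.0% to 62.5%) of junction reads. The difference of 20.6 points (13.3 to 27.6) was the largest of this direction (Fisher's exact adjusted p = 3.10e-07). Stxbp5l, a gene of the tomosyn family that restrains vesicle fusion, was at 0.563, 0.674, 0.526 and 0.347 with 71.7% and 52.4% of junction reads (exact adjusted p = 3.85e-04). Ash2l, a subunit of histone H3 lysine methyltransferase complexes, was at 0.379, 0.506, 0.372 and 0.251 for its 18 nt exon (exact adjusted p = 4.18e-07). In these 3 the cytoplasmic value lay nearer to control and the nuclear value lay past it. In Stxbp5l and Ash2l the cytoplasmic value lay past control too, by less. Dclk1, a microtubule-binding kinase gene, differed least, at 0.509 in the knockdown, 0.390 and 0.363, with 61.3% and 57.9% of junction reads (exact adjusted p = 0.0394).

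In all 14 exons that differed the nuclear value lay farther from the knockdown than the cytoplasmic value, and in 17 of the 31 others. The knockdown value is the same in both distances. Measured from it, the cytoplasmic isoform moved the 14 exons by 27.6% (Tanc2) to 81.5% (Dclk1) of what the nuclear isoform did, with a median of 51.1%. Over all 45 exons the median absolute shift was 0.133 with the cytoplasmic isoform and 0.164 with the nuclear one. These shares and medians cover only exons listed as changed with both isoforms. Another 105 were listed with the cytoplasmic isoform only and 273 with the nuclear isoform only. Exons that an isoform moved little are thus left out, and the values do not measure its strength over all exons. Of the 27 exons that the knockdown table lists too, 15 lay past control with the nuclear isoform and 9 with the cytoplasmic isoform, and the cytoplasmic value was the nearer to control in 17. The Rbfox1 RNA itself stood at 148% of control with the nuclear and 62.5% with the cytoplasmic isoform, and its part in these distances was not tested.

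**Figure D5:**
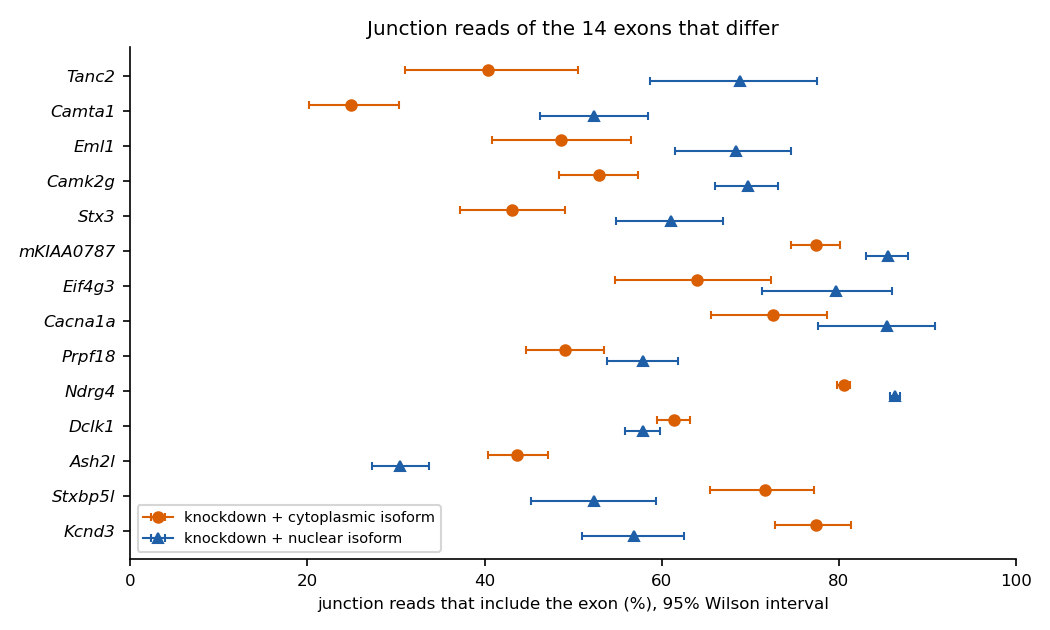
Share of junction reads that include the exon, with 95% Wilson intervals, for the 14 exons that differed. Triangles (nuclear isoform) lie to the right for the upper 10 exons and to the left for the lower 4, and the interval is narrowest for Ndrg4.

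Many exons did not differ detectably between the isoforms. The exon of Oscp1 was at 0.152 in the knockdown and 0.297 and 0.296 with the isoforms, beside 0.304 in control, with a junction difference of 0.762 points (-5.56 to 7.09). Both isoforms thus brought this exon to within 0.05 of control. The 15 nt exon of Kif21a, a kinesin gene, was at 0.543, 0.711 and 0.695, and that of Tsc2, which restrains mTOR signalling, at 0.491, 0.625 and 0.634. The ratios differed by under 0.05 for 22 of the 45 exons, a count that takes in an exon at 0.05 itself. Snap25 was listed at 0.996 and 0.999 with 9802 and 11489 junction reads, 7 of them skipping in each rescue.

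Inclusion ratios and junction reads did not always tell the same. A ratio difference of at least 0.1 was seen for 15 exons (33.3%), 9 higher with the nuclear and 6 with the cytoplasmic isoform, and 11 of the 15 differed in junction reads. The largest difference of ratios was in Eml4, 0.866 with the cytoplasmic isoform and 0.489 with the nuclear one, where 99.4% and 93.8% of 157 and 81 junction reads included the exon (Fisher's exact adjusted p = 0.0551). Bhlhb9 was at 0.798 and 0.551, with 90.6% and 78.4% of 106 and 74 junction reads (exact adjusted p = 0.0855). These were the 2 exons that lay on opposite sides of the knockdown, at 0.724 and 0.674. Robo2, an axon guidance receptor gene, was at 0.226 and 0.381 with 45.0% and 52.9% of junction reads (exact adjusted p = 0.248). For 15 of the 45 exons the authors' ratio and the junction share of a rescue were over 0.2 apart. The share sums both junctions of the cassette and is not itself an inclusion fraction, so a gap is built in. Its part in these gaps was not tested.

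The exons that differed were short. Sizes went from 15 to 960 nt, with a median of 41 nt for the 14 that differed and 80 nt for the 31 others. A size that is a multiple of 3, which keeps the reading frame, was found in 10 of the 14 and in 28 of all 45. The RNA levels of their genes are given beside them. For the 12 of the 14 genes found by symbol among the levels, log2 ratios went from -0.13 (Ndrg4) to 0.18 (Camta1), and 0 had an unadjusted z test p below 0.05. Camkk2, to which mKIAA0787 was matched, had a log2 ratio of 0.26 (log2 difference 0.27, error 0.223) and did not pass. Camk2g, for example, stood at 24.9 and 26.8 FPKM and Kcnd3 at 16.6 and 17.9 with the cytoplasmic and nuclear isoform.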

How the data were processed

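RNA-seq of cultured mouse hippocampal neurons was analysed from the authors' tables. Unstranded TruSeq libraries, depleted of ribosomal RNA, were read as 50 nt pairs, per the labels' protocols. CASAVA, Cufflinks and the build mm9 are named in the submitters' processing notes, with no version. The authors deposited 1 FPKM value per group, with a log2 fold change and a test statistic (both handled as a score, since unbounded entries occur), a p-value and a q-value against the shared knockdown group. The splicing tables hold the authors' inclusion fraction per group and deposited junction read counts, with SpliceTrap named per the file names. Another 36 value columns of the splicing tables were not used. Total depth per library is unknown, and the labels give no depth.

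An implied error was taken as log2 fold change over test statistic, in absolute value. The planned test on values per library was not possible because the tables hold group values, so the difference of both rescue fold changes was tested by a two-sided z test with errors added in quadrature and Benjamini-Hochberg adjustment over 12375 genes. This is a normal approximation with 2 libraries a group, so it gives counts and calls but no printed p-value. A gene listed at 0 in a group (31 genes) was not tested. Ratios of levels used FPKM + 1. Exons were tested by Fisher's exact test, two-sided, on inclusion against skipping reads. Python 3.11.15, pandas 2.3.3, scipy 1.17.1 and numpy 2.4.6 were used, and the tests were tested on simulated data. Named genes were Rbfox1 to Rbfox3, every gene that passed, the 12 largest ratios and the next 8 smallest p each way and 4 members per list, with the exons that passed and those of most reads without a difference. Further names, such as Bdnf, Nptx1, Camkk2, Kif21a, Tsc2, Eml4, Bhlhb9, Robo2 and the genes passing with 50% of each variance removed, were chosen after their values were seen. Members and lists were chosen with earlier results of these data known. Locus spans are mm9 counted from 1, and sequences are GENCODE M21 on GRCm38. The values of 2 of the 45 exons are not reported here one by one.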

Additional observations from a re-analysis of the deposited data

How the results depend on the processing

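No paired analysis was possible because the tables hold 1 value per group and carry no replicate numbers, and leaving out a library was not run for the same reason. The count of genes that passed, 4 (1 higher with the cytoplasmic isoform and 3 with the nuclear one), rose to 25 (19 and 6) with the larger of both errors alone and to 28 (21 and 7) with 50% of each variance removed. At a threshold of 0.01 the cytoplasmic count was 0. No FPKM minimum, a minimum of 5 and a median set to 0 left these counts within 1.5 times. The counts of genes at least 1.5-fold apart, 58 and 33, were 20 and 3 at an implied error under 1, and stayed within 1.5 times with a pseudocount of 0.1 or 5. With a pseudocount of 0.1, an FPKM minimum of 5 and the median set to 0, the list medians ran from 0.29 to 0.33 for late activity genes, from 0.24 to 0.27 for immediate early genes and from 0.12 to 0.30 for microglia markers. With the median set to 0 the ratio of Lum, a fibroblast marker, turned from -0.0175 to 0.0217. The exon counts, 14 (10 and 4), stayed within 1.5 times with inclusion reads divided by 2 and with a threshold of 0.01. Over these settings 8 calls of single exons were lost, at 0.01 those of Eif4g3, Cacna1a, Prpf18 and Dclk1. A minimum of 20 junction reads removed no exon, because the lowest count was 55, so it could not change the counts. Joining on the cassette exon alone gave 8 of 49 joined pairs more included with the cytoplasmic isoform. A ratio difference above 0.2 was seen for 5 exons in place of 15, with Eml1 at 0.2 itself. The cause of these moves was not tested beyond the settings themselves. Under each of 4 alternatives chosen after seeing the data, the hexamer medians of genes with 2 or more copies stayed above those with 0 in all 4 length classes. With 1 value per group, no p-value here measures the spread between cultures.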
